A study of Mus musculus with 3 samples.

Results

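The 10 cathepsin genes Ctsa, Ctsb, Ctsc, Ctsd, Ctse, Ctsh, Ctsk, Ctsl, Ctss and Ctsz were followed across 3 mouse pancreatic tumour cell lines of the HI-Panc progression model. They were taken by symbol from a table of 22725 genes, in which all 10 were found. The lines are named for a stage, either localized, invasive or metastatic, and were measured by RNA-seq with 1 library each (n = 1). Differences below therefore have no replicate check, and p-values are not given. All 3 lines came from transgenic mice whose genotype label includes p16-/-, and were cultured in DMEM with 10% fetal bovine serum. As their tissue, the labels name body wall (localized line), pancreatic tissue (invasive line) and liver (metastatic line). The first 2 of these tissues do not match what the stage names would lead a reader to expect, and if those 2 lines were exchanged, the direction of every invasive against localized difference would turn round, and the 2 comparisons that involve the metastatic line would trade places with their counts and stage order. A shared protocol text names 24 h of cobalt chloride, a hypoxia mimic, at 100 ng/ml for hypoxic models without saying whether these libraries came from treated cells. The number of clones or animals behind each line is not stated in the labels.

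Cathepsins are proteases of the endosome and lysosome that were grouped historically by where they work rather than by how they cut. Most are papain-like cysteine proteases, cathepsins D and E are aspartic proteases, and cathepsin A is a serine carboxypeptidase. They are made as inactive precursors, sorted to lysosomes largely by mannose 6-phosphate tags, activated by acid pH and other proteases, and held in check outside the lysosome by cystatins and stefins. In pancreatic tumours, cathepsins secreted by tumour cells and by macrophages are known for cutting matrix and cell-adhesion proteins. Transcript levels do not give the amount of active enzyme.

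Levels are given as FPKM, which is scaled by transcript length, so that genes can be compared with one another. Depth, estimated from the steps between low values, was 42200000 fragments (localized), 38000000 (invasive) and 40100000 (metastatic). A difference was called at 2-fold on the log2(FPKM + 1) scale among genes with a mean of at least 1 FPKM. Cdkn2a, the gene of p16, reached 15.4 FPKM in the invasive and 23.6 FPKM in the metastatic library but was listed at 0 in the localized one. The whole gene, which also encodes p19Arf, was measured, so these values do not test the deleted part. None of 9 hepatocyte markers passed the filter, with sums of 0.485, 1.08 and 0.766 FPKM in localized, invasive and metastatic order, and of 10 acinar markers Cela1 alone passed it, with 7.24, 1.13 and 0.323 FPKM. The simple-epithelial keratin Krt19 had 181, 1970 and 2365 FPKM.

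Of the 10 genes, 8 passed the filter and were at or above 1 FPKM in all 3 libraries. Cathepsin D was the most abundant in each library. Its gene Ctsd, encoding the main aspartic protease of lysosomes, had 391, 310 and 393 FPKM in the localized, invasive and metastatic libraries, which placed it at ranks 196, 255 and 205 among all genes. Behind it the order changed. In the localized library Ctsl, Ctsb and Ctsz followed with 263, 163 and 146 FPKM, whereas in the invasive library Ctsh and Ctsb followed with 228 and 205 FPKM. In the metastatic library Ctsb, Ctsl and Ctsh lay close together at 149, 137 and 133 FPKM, and without replicates it cannot be said whether these 3 neighbours differ. Ctsk and Ctss did not reach 1 FPKM anywhere.

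**Figure D1:**
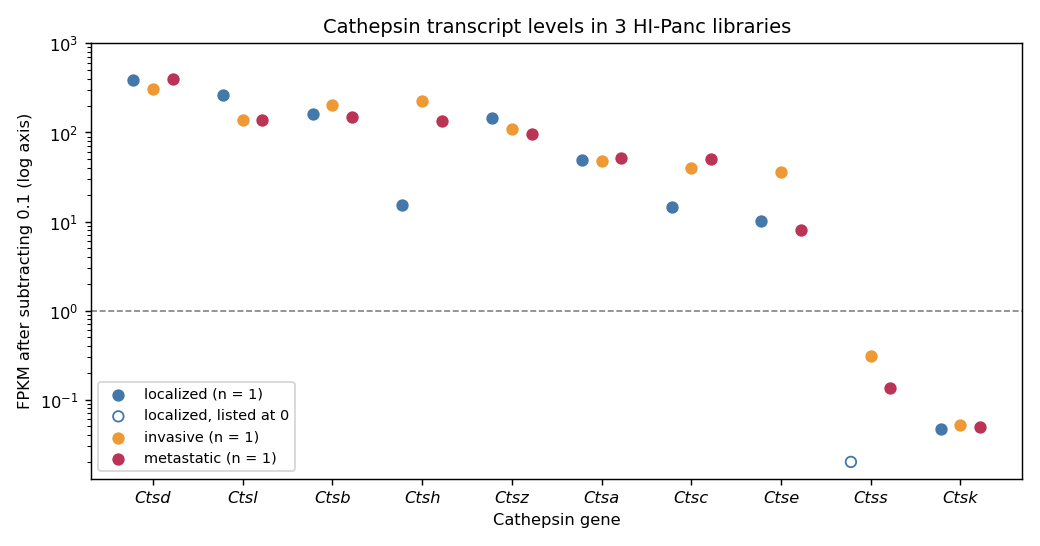
FPKM after subtraction of 0.1 (log axis) for each of the 10 cathepsin genes, ordered by mean level, with 1 point per library and a dashed line at 1 FPKM. Ctsh has its localized point at 15.5 FPKM far below the other 2, and the open circle, drawn at an arbitrary height, marks Ctss as listed at 0 in the localized library.

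The summed level of the 10 genes was nearly the same in the 3 libraries, while its make-up differed. The sums were 1052 FPKM in the localized, 1115 FPKM in the invasive and 1018 FPKM in the metastatic library, or 0.184%, 0.194% and 0.180% of all FPKM. The share of Ctsh in the cathepsin sum was 1.47% (localized), 20.4% (invasive) and 13.0% (metastatic). Ctsl made up 25.0%, 12.5% and 13.5% in the same order. The share of Ctsd was 37.2%, 27.8% and 38.6%. The lower Ctsl and Ctsz levels thus stood beside the higher Ctsh level in the invasive and metastatic libraries, and the 7 cysteine cathepsins together had 602, 721 and 565 FPKM.

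**Figure D2:**
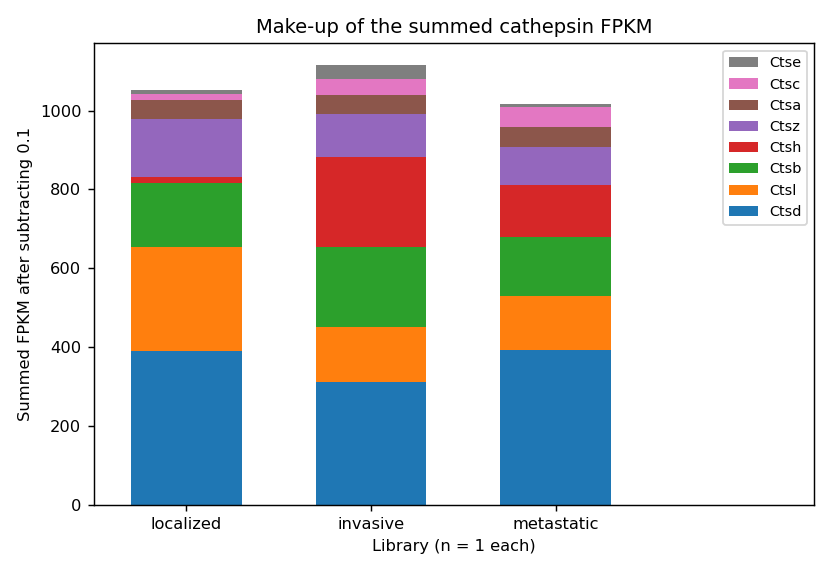
Summed FPKM (after subtraction of 0.1) of the 8 cathepsin genes above 1 FPKM in each library (n = 1 each), stacked by gene. The bars have similar heights, and the Ctsh segment is 15.5 FPKM in the localized, 228 FPKM in the invasive and 133 FPKM in the metastatic library.

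Set against the localized library, the invasive one had 3 of the 8 genes at least 2-fold higher, namely Ctsh, Ctse and Ctsc, where 8.78% of all genes past the filter were called higher. At least 2-fold lower were 0 of the 8, beside 6.07% of all genes. The median difference of the 8 genes was 0.15 on the log2 scale, beside -0.0016 over all 11403 genes. For metastatic against localized, 2 of 8 were at least 2-fold higher, Ctsh and Ctsc (9.07% of all genes), and 0 of 8 lower (7.29% of all genes). The median was -0.063, beside 0.0040 for all genes. These 2 comparisons share the localized library and are not independent. For metastatic against invasive, 0 of 8 were higher (1.32% of all genes) and 1 of 8 lower, Ctse (1.67% of all genes), with a median of -0.10 beside -0.0085.

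**Figure D3:**
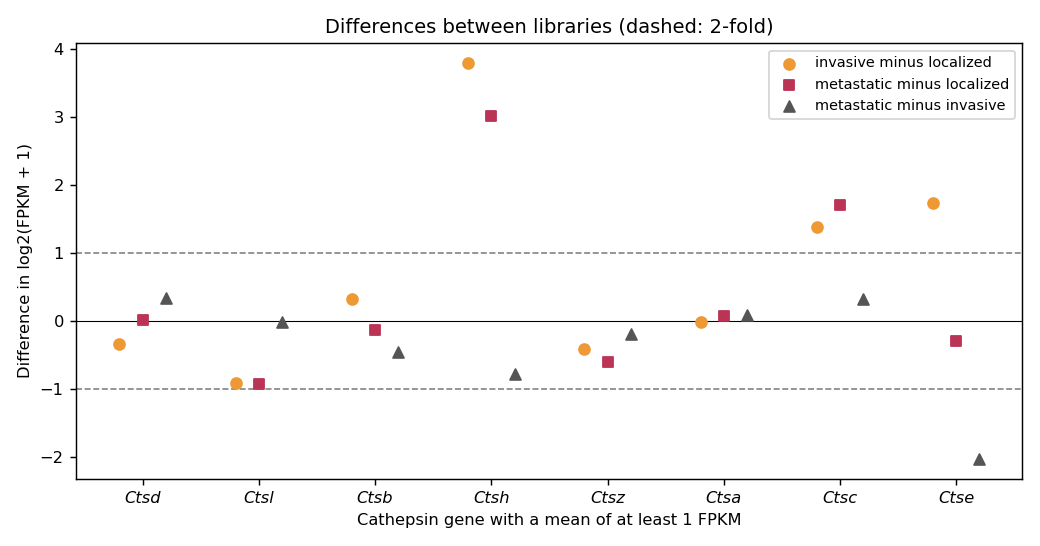
Difference in log2(FPKM + 1) for the 8 cathepsin genes with a mean of at least 1 FPKM, with a symbol for each of the 3 comparisons and dashed lines at 2-fold. Ctsh stands at 3.79 and 3.02 against the localized library, Ctse at -2.03 for metastatic minus invasive, and Ctsl at -0.91 and -0.93 just inside the lower line.

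Ctsh, on GRCm38 chromosome 9 (90054152 to 90076089, plus strand), encodes cathepsin H, an aminopeptidase that trims proteins from their N-terminus and processes surfactant protein in the lung. It had 15.5 FPKM in the localized, 228 FPKM in the invasive and 133 FPKM in the metastatic library. The localized library was thus the low one, and the invasive the highest. The invasive over localized ratio was 14.7 (95% counting interval 13.8 to 15.7), the metastatic over localized ratio 8.58 (8.05 to 9.15) and the metastatic over invasive ratio 0.583 (0.568 to 0.599). These exact Clopper-Pearson intervals use fragment numbers estimated from FPKM and length and cover counting error only, not the spread between cultures. On the log2(FPKM + 1) scale the differences were 3.79, 3.02 and -0.77, and 99.0% of genes differed by less between the invasive and localized libraries. As these are bulk libraries, fewer cells of a type and less RNA per cell cannot be told apart.

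Ctsc (chromosome 7, 88278085 to 88310888, plus strand) encodes dipeptidyl peptidase I, which activates the serine proteases of immune-cell granules by removing an N-terminal dipeptide. Its levels were 14.7 FPKM in the localized, 40.1 FPKM in the invasive and 50.5 FPKM in the metastatic library. Here the metastatic library was the highest. The ratio was 2.72 (2.57 to 2.89) for invasive over localized, 3.42 (3.24 to 3.63) for metastatic over localized and 1.26 (1.21 to 1.31) for metastatic over invasive, with log2 differences of 1.39, 1.71 and 0.32. Ctsg, the gene of cathepsin G, a neutrophil granule protease that needs this activation, was listed at 0 in all 3 libraries.

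Ctse (chromosome 1, 131638306 to 131675505, plus strand) encodes cathepsin E, an aspartic protease of endosomes rather than mature lysosomes that is known from stomach epithelium and from ductal lesions of the pancreas. It had 10.0 FPKM in the localized, 35.7 FPKM in the invasive and 8.01 FPKM in the metastatic library. The invasive library was high, and the other 2 libraries were within 2-fold of each other and each over 2-fold below it. The ratio was 3.57 (3.29 to 3.87) for invasive over localized and 0.224 (0.205 to 0.245) for metastatic over invasive, and 99.6% of genes differed by less in the second of these comparisons. The metastatic over localized ratio was 0.800 (0.718 to 0.892), a difference of -0.29 on the log2 scale. The related lysosomal Ctsd (chromosome 7, 142375911 to 142388038, minus strand) went the other way at each step without reaching 2-fold, with ratios of 0.793 for invasive over localized and 1.27 for metastatic over invasive.

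Markers of cell types also differed between the libraries. Their counts stand beside the shares over all genes past the filter. These were 8.78% higher and 6.07% lower for invasive against localized, and 9.07% and 7.29% for metastatic against localized. For metastatic against invasive they were 1.32% and 1.67%. Epithelial markers past the filter numbered 9, and against the localized library 8 of them were higher by 2-fold or more in the invasive library and all 9 in the metastatic library, with summed levels over 12 listed genes of 1203 FPKM in the localized, 6501 FPKM in the invasive and 7018 FPKM in the metastatic library; Esrp1 was at 0 in the invasive library. Of 9 fibroblast markers past the filter, 8 were lower than in the localized library by 2-fold or more in both, with sums over 13 genes of 672, 109 and 28.2 FPKM, and 4 of the 13 were at 0 in the metastatic library. The ninth, Fbln1, was higher by over 2-fold in both, with 4.15, 13.7 and 13.1 FPKM. Gastric markers, listed for Ctse, summed to 705, 617 and 405 FPKM over 15 genes. Of 9 past the filter, 5 were higher and 1 lower for invasive against localized, and 5 higher and 3 lower for metastatic against localized. For metastatic against invasive 0 of the 9 were higher and 3 lower, while Gkn2 and Gif were at 0 in all libraries. The fibroblast list had the same counts in this comparison, with 0 of its 9 higher and 3 lower. Of the 9 epithelial markers, 1 was higher and 0 lower in it. Some counted genes passed the filter only through the libraries where they were high, which favours their calls. Examples are Dcn, with 54.4, 0.071 and 0.014 FPKM, and Gata5, with 0.028, 17.0 and 16.3 FPKM. Krt7, Muc1 and Cldn18 were also below 1 FPKM in the localized library only. The part of these markers in the cathepsin differences was not tested. Of 21 macrophage markers in the table, 4 passed the filter (Cd14, Cd68, Mrc1 and Laptm5). Against the localized library 2 of the 4 were higher by 2-fold or more in both lines and 0 lower, namely Mrc1 with 1.90, 8.36 and 7.03 FPKM and Laptm5 with 0.020, 1.61 and 4.90 FPKM. Laptm5, too, passed the filter only through its invasive and metastatic values. For metastatic against invasive, 1 of the 4 was higher, Laptm5, and 0 lower. The list summed to 91.9, 161 and 103 FPKM, of which Cd14 alone gave 84.8, 139 and 80.3 FPKM, and its part in the cathepsin differences was not tested either. The macrophage genes Emr1, Spi1, Tyrobp, C1qa, C1qb and C1qc were at 0 in all 3 libraries, and the pan-leukocyte gene Ptprc had 0.017, 0.197 and 0.069 FPKM. Others of the list were seen below the filter, such as Csf1r with 0.024, 0.138 and 0.075 FPKM. Itgam had 0.015, 0.275 and 0.255 FPKM and Fcgr3 had 0, 0.702 and 0.313 FPKM. Fcer1g was seen in the localized library only, at 0.046 FPKM.

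Ctsl (chromosome 13, 64359337 to 64370890, minus strand), the gene of the endopeptidase cathepsin L, had its highest level in the localized library. It had 263 FPKM in the localized, 139 FPKM in the invasive and 137 FPKM in the metastatic library. The invasive and metastatic libraries were near each other, with a ratio of 0.985 (0.959 to 1.01). The invasive over localized ratio was 0.530 (0.518 to 0.543) and the metastatic over localized ratio 0.522 (0.510 to 0.534), so both fell short of 2-fold lower. Ctsz (chromosome 2, 174427493 to 174439039, minus strand), whose product cathepsin X removes single residues from the C-terminus, had 146, 109 and 95.8 FPKM. The metastatic over localized ratio of Ctsz was 0.656 (0.635 to 0.679), a log2 difference of -0.60.

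Ctsb and Ctsa varied least across the stages along with Ctsd. Ctsb (chromosome 14, 63122462 to 63145923, plus strand) encodes cathepsin B, which acts as an endopeptidase and as a dipeptidyl carboxypeptidase, and it had 163, 205 and 149 FPKM in the localized, invasive and metastatic libraries. Its widest ratio was 0.726 (0.715 to 0.738), for metastatic over invasive. Ctsa (chromosome 2, 164832873 to 164841032, plus strand) encodes the carboxypeptidase that holds neuraminidase and beta-galactosidase in a stable complex, and it had 48.8, 48.1 and 51.4 FPKM. Its log2 differences lay between -0.022 and 0.095 in the 3 comparisons. Several of these genes overlap a neighbour on the other strand in the GENCODE M21 annotation. The overlap is with Fdft1 for Ctsb, with Pltp and Neurl2 for Ctsa and with Nelfcd for Ctsz. Ctsc and Ctsl also overlap Gm26522 and Gm47123 on the other strand. On the same strand, Gm49369 overlaps Ctsd, Gm49230 overlaps Ctsl and Hmgb1-ps5 overlaps Ctss. These Gm genes and Hmgb1-ps5 have no listed level. No source used here says whether counting used strand. Fdft1 at 11.6, 23.1 and 15.0 FPKM was far below Ctsb, while Nelfcd had 27.2, 23.7 and 19.9 FPKM. Pltp had 16.9, 15.8 and 10.8 FPKM.

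The remaining 2 genes, known from other cell types, were at the edge of detection. Ctsk (chromosome 3, 95499256 to 95509362, plus strand), the collagen-cutting cathepsin of osteoclasts and activated fibroblasts, had 0.047, 0.052 and 0.049 FPKM, which corresponds to about 3 fragments in each library. The invasive over localized ratio of 1.11 had an interval of 0.149 to 8.29, so no difference was detectable at this depth. Of 9 osteoclast markers 4 passed the filter (Acp5, Tnfrsf11a, Itgb3 and Nfatc1). At least 2-fold lower than in the localized library were 0 of the 4 in each line, beside 6.07% (invasive) and 7.29% (metastatic) of all genes. Higher by 2-fold or more were 2 of the 4 in each line, beside 8.78% and 9.07% of all genes. These were Tnfrsf11a in both lines, with 5.04, 13.3 and 14.1 FPKM, Itgb3 in the invasive line, with 5.07, 14.9 and 7.75 FPKM, and Acp5 in the metastatic line, with 5.51, 9.41 and 17.8 FPKM. Dcstamp, needed for osteoclast fusion, was at 0 in all 3 libraries, and of 7 endothelial markers none passed it. Ctss (chromosome 3, 95526786 to 95556403, plus strand), the cathepsin of antigen-presenting cells that cuts the invariant chain of MHC class II, was listed at 0 in the localized library and had 0.309 FPKM in the invasive and 0.137 FPKM in the metastatic library. These levels correspond to about 16 and 7 fragments, where 3 fragments would be 0.052 FPKM in the localized library. Between the metastatic and invasive libraries the ratio of 0.443 had an interval of 0.144 to 1.07, so a difference was not detectable at this depth. The MHC class II pathway itself was likewise low, with 0 of 10 listed genes past the filter; the invariant chain gene Cd74 had 0.105, 0.395 and 0.187 FPKM.

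Most relatives outside the 10 genes were low or not seen. Of 18 further genes, comprising other cathepsins and related proteases, 9 were listed at 0 in all 3 libraries, among them the placental cathepsins Cts3, Cts6, Cts8, Ctsj, Ctsm, Ctsq, Ctsr and Ctsll3. Ctso had 5.98, 5.16 and 5.88 FPKM and Ctsf 2.32, 0.891 and 1.83 FPKM. The catalytically inactive relative Tinagl1 was abundant, with 225, 273 and 212 FPKM. The aspartic protease Bace2, with 0.283, 8.42 and 11.6 FPKM, was the 1 gene of the 5 past the filter that was at least 2-fold higher against the localized library. The shares of all genes were 8.78% (invasive) and 9.07% (metastatic). Bace2 passed the filter only through its invasive and metastatic values, and the filter favours such calls.

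Cystatin and stefin genes together were expressed at a level similar to that of the cysteine cathepsins. Cst3, the gene of secreted cystatin C, had 525, 450 and 384 FPKM, and Cstb, the gene of cytosolic stefin B, had 235, 244 and 245 FPKM in the localized, invasive and metastatic libraries. Together they gave between 99.5% and 99.9% of the FPKM of 15 cystatin and stefin genes. The summed level of the 7 cysteine cathepsins was 0.789 (localized), 1.04 (invasive) and 0.898 (metastatic) times that of these inhibitors. A wider list of protease inhibitors, not only of cysteine proteases, had 5 genes past the filter. Of these, 2 were lower by 2-fold or more in both the invasive and the metastatic than in the localized library, beside 6.07% and 7.29% of all genes. These were Cst6, the gene of cystatin M, an inhibitor of cathepsin L, with 3.46, 0.051 and 0.037 FPKM, and Fetub, of the fetuin branch of the cystatin family, with 9.37, 0.300 and 0.840 FPKM. Cst6 and Fetub passed the filter only through their localized values, so their lower calls were nearly fixed by the filter. Serpinb6a, a serpin of the cytosol, had 333, 233 and 262 FPKM.

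Genes that process, bind or sort cathepsins included few called ones, as did all genes, of which 8.78% were higher and 6.07% lower for invasive against localized and 9.07% and 7.29% for metastatic against localized. Among 11 partners and processing enzymes, Neu1 was the only one past 2-fold. This neuraminidase, which needs cathepsin A for its activity, had 5.55, 18.8 and 31.0 FPKM, while Ctsa and Glb1, the other members of the complex, did not reach 2-fold. Lgmn, the asparaginyl endopeptidase that cuts several cathepsins into their mature chains, had 54.7, 30.4 and 47.3 FPKM. Of 11 sorting genes past the filter, 1 was higher in the invasive than in the localized library and 2 were higher and 1 lower in the metastatic. Sortilin, Sort1, which carries lysosomal proteins without the mannose 6-phosphate tag, had 0.698, 21.4 and 16.9 FPKM. It passed the filter only through its invasive and metastatic values, and the filter favours such calls. The mannose 6-phosphate receptor gene M6pr had 58.6, 95.7 and 85.9 FPKM and the second such receptor, Igf2r, had 15.8, 11.9 and 12.6 FPKM. Lrp1, an endocytic receptor that takes up secreted lysosomal precursors, had 51.2, 29.9 and 18.9 FPKM, and Scarb2, the receptor of glucocerebrosidase, had 21.8, 26.9 and 45.3 FPKM.

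**Figure D4:**
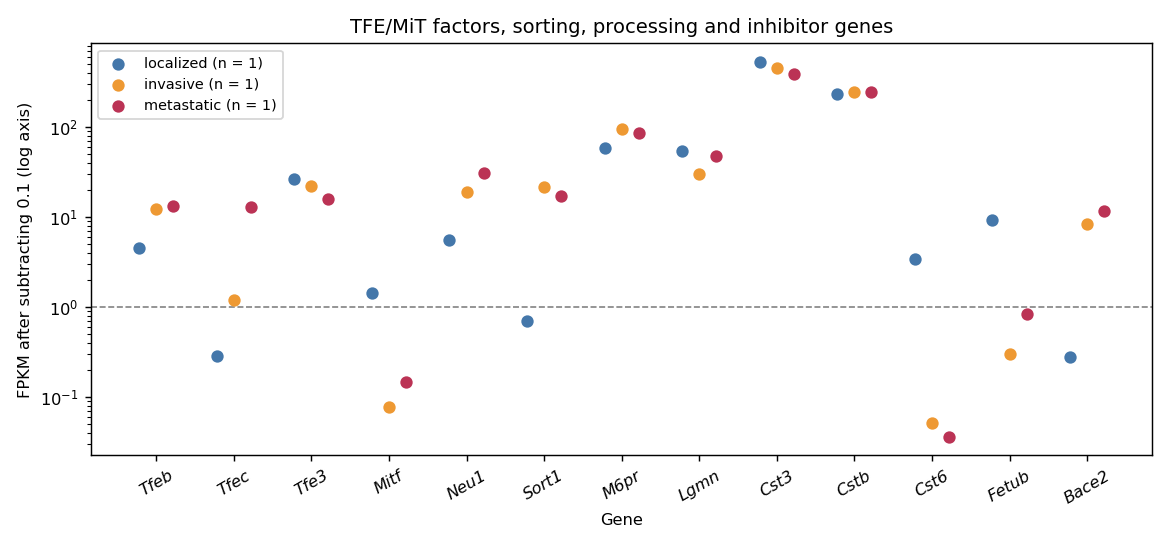
FPKM after subtraction of 0.1 (log axis) of 12 genes from the lists of TFE/MiT factors, sorting genes, processing partners and protease inhibitors, and of the aspartic protease Bace2. There is 1 point per library and a dashed line at 1 FPKM. Sort1, Bace2 and Tfec have their localized point below 1 FPKM. Cst6, Fetub, Mitf, Tfe3, Lgmn and Cst3 have theirs above the other 2 libraries.

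The TFE/MiT transcription factors bind an E-box with the core CACGTG in promoters of many lysosomal genes. Tfeb had 4.53 FPKM in the localized, 12.3 FPKM in the invasive and 13.4 FPKM in the metastatic library, so it was at least 2-fold higher in both than in the localized library. Tfec, a family member of restricted expression, had 0.287, 1.20 and 13.0 FPKM. Tfe3 was the most abundant of the 4 family genes in each library, with 26.4, 22.1 and 16.0 FPKM. Mitf had 1.42, 0.077 and 0.146 FPKM and did not pass the filter. The list of 9 factors and regulators, of which 8 passed, had medians of -0.093 (invasive minus localized), 0.079 (metastatic minus localized) and 0.13 (metastatic minus invasive).

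Promoters were searched for CACGTG, which reads the same on both strands, in the 250 bases before the transcription start. RefSeq windows (GRCm38.p6) were at hand for 7 of the 10 genes. There was no window for Ctsb, Ctse and Ctsh, so the called genes Ctse and Ctsh were not searched. Those of Ctsa, Ctsd and Ctsl hold the motif in at least 1 window, as do 6.86% of all 27025 genes with a window (6.02% of all 32851 windows). The Ctsl window, the Ctsa window with the motif and part of the Ctsd window lie inside the GENCODE M21 gene model, which begins further upstream. The other Ctsa window, just before the start of that model, has 0 matches. Bases just after the window were found in no GENCODE M21 transcript of Ctsl, nor of Ctsk, whose window lacks the motif. It is therefore not shown that these windows end at a transcription start. The windows of Ctsc, called higher in 2 comparisons, and of Ctsd, called in none, are shown as examples without and with the motif. Ctsz, also called in none, has a window without the motif. A link between motif and level was not tested. The Ctsc window is chr7:88277835-88278084 on the plus strand, and the Ctsd window is chr7:142387828-142388077 on the minus strand. Both are written 5′ to 3′ on the strand of the gene, and capitals mark the motif.
Ctsc promoter: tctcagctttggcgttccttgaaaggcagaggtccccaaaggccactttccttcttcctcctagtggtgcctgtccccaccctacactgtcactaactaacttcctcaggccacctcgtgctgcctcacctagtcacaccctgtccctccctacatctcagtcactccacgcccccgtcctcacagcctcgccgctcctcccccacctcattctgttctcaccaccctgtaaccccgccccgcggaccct
Ctsd promoter: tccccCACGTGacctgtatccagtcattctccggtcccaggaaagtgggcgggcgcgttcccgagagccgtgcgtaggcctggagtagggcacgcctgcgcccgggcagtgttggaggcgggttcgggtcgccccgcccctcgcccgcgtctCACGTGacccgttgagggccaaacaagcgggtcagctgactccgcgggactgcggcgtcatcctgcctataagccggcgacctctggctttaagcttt
The Ctsd window holds the motif 2 times, with its first base 245 and 98 bases before the start. The Ctsc window does not hold these letters, which says nothing about binding elsewhere.

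Other lysosomal genes were called higher against the localized library at shares near those over all genes, and few or none were called lower. Of 35 other lysosomal hydrolases and lumenal proteins, all past the filter, 2 were higher by 2-fold or more in the invasive than in the localized library and 0 were lower. The shares of all genes were 8.78% and 6.07%. In the metastatic library 3 were higher and 1 lower than in the localized one, beside 9.07% and 7.29% of all genes. Galc, the galactosylceramidase, had 7.21, 29.1 and 31.2 FPKM, and Manba, the beta-mannosidase, had 5.90, 13.8 and 14.3 FPKM. Npc2, the lumenal cholesterol carrier, went the other way with 152, 106 and 72.1 FPKM, and the membrane transporter Npc1 that receives cholesterol from it had 10.3, 30.4 and 26.9 FPKM. Median differences of the hydrolases were 0.023 (invasive minus localized), 0.24 (metastatic minus localized) and 0.080 (metastatic minus invasive), beside all-gene medians of -0.0016, 0.0040 and -0.0085. Of 31 genes of the lysosomal membrane and the proton pump past the filter, 2, 3 and 1 were higher in the same 3 comparisons, beside 8.78%, 9.07% and 1.32% of all genes. At least 2-fold lower were 0 in each of the 3, beside 6.07%, 7.29% and 1.67% of all genes. Lamp1, a lysosomal membrane glycoprotein, had 357, 243 and 299 FPKM.

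**Figure D5:**
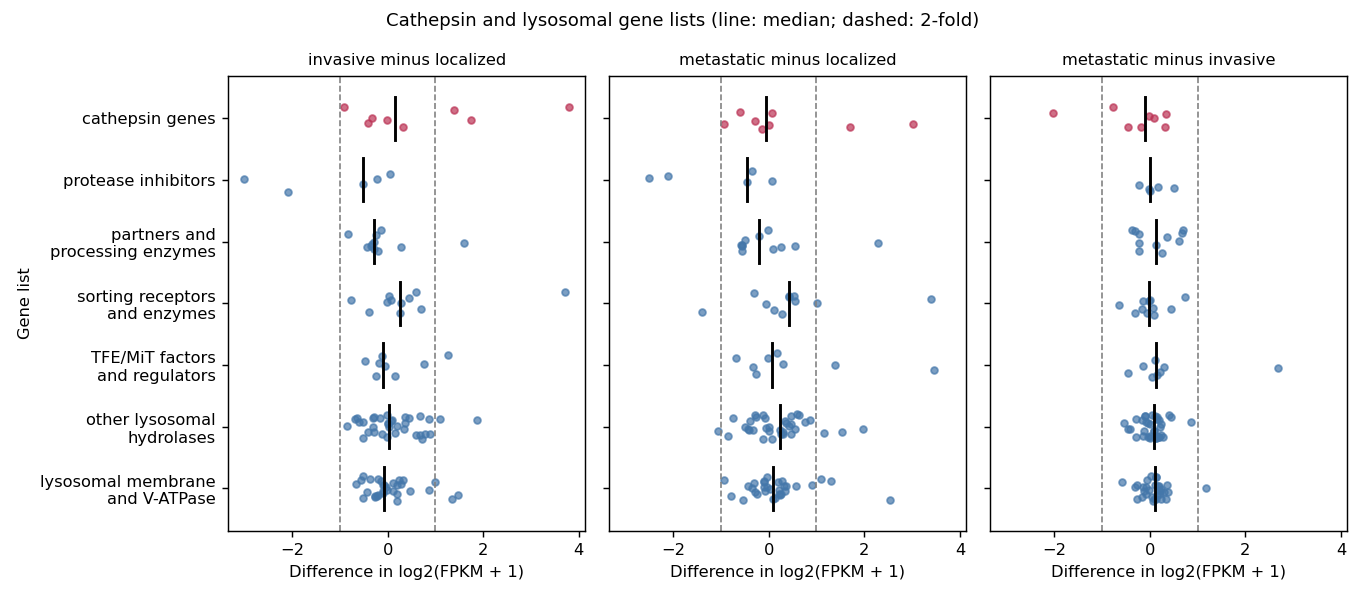
Difference in log2(FPKM + 1) for each gene past the filter in 7 lists, 1 panel per comparison, with vertical lines at list medians and dashed lines at 2-fold; vertical scatter within a list has no meaning. The medians of the cathepsin genes are 0.15, -0.063 and -0.10, and Ctsh at 3.79 and Sort1 at 3.72 are the furthest points to the right in the invasive minus localized panel.

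Genes with the most similar pattern were sought for the 3 cathepsins past 2-fold, by the distance between their log2(FPKM + 1) values centred on the mean of the 3 libraries. Only genes past the filter were searched, and those named as predicted genes, RIKEN clones or pseudogenes were left out of the counts. With 3 values per gene a like pattern is common, and it is given as a description. Around Ctsc, 460 genes lay within a distance of 0.5, the nearest being S100a16 at 0.029, with 72.8, 195 and 247 FPKM. Around Ctsh there were 22, with the syntenin relative Sdcbp2 at 0.13, the calcium channel gene Cacna1g at 0.16 and the Notch ligand gene Dll1 at 0.19 the nearest. Around Ctse there were 6, so its pattern was the least common of these 3. The nearest to Ctse were Gipc2 at 0.24, with 16.2, 44.7 and 11.0 FPKM, the tetraspanin gene Tspan13 at 0.42, and the adhesion molecule gene Vcam1 at 0.43, with 57.1, 128 and 41.8 FPKM.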

How the data were processed

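RNA-seq of 3 cell lines, 1 library each, was analysed, with groups taken from the stage label. The authors deposited 1 table of FPKM per gene, a unit given in the table's name. Tools listed in the submitters' processing notes, with no role or order, are Cufflinks 2.2.1, STAR 2.5.2a and FastQC 0.11.2, with genome build GRCm38. The lowest value was 0.1 in each column and was read as a constant added by the authors, so 0.1 was subtracted. Of 22784 entries, 27 without a gene symbol and 32 short RNA genes were left out. Differences used log2(FPKM + 1), which understates folds of low genes, and genes with a mean of at least 1 FPKM (11403), called at 2-fold. No test was possible with n = 1.

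Depth was estimated from GENCODE M21 genes with 1 transcript of at least 1500 bases, whose low values fell within 0.1 of whole fragments for 66.3%, 72.6% and 73.5% of genes (localized, invasive, metastatic), against 20% for evenly spread values. Fragments per gene used the shortest coding transcript, which gives the widest interval. Simulated data with large set changes and little noise were used to check that the calculation recovers calls and depth steps. They do not measure the error of 2-fold calls between libraries without replicates. Python 3.11.15, pandas 2.3.3 and scipy 1.17.1 were used. The cathepsin genes and lists were chosen with earlier results of these data known. Named were all 10 cathepsins, any gene of the smaller lists, the 4 largest differences or defining genes of the longer lists and the 3 genes nearest in pattern. Lamp1, the genes overlapping a cathepsin gene and Cdkn2a were named outside this rule. Alternatives were 2 pseudocounts, 2 filters, no subtraction, 2 scalings and 2 thresholds. Part of the genotype label is not reported here.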

Additional observations from a re-analysis of the deposited data

How the results depend on the processing

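Calls for the 8 cathepsin genes past the filter kept their count under pseudocounts of 0.1 and 5, with no filter, with a mean of at least 5 FPKM, without the subtraction of 0.1, and with both scalings. With a 1.5-fold threshold, 1 gene in place of 0 was lower for invasive against localized and 2 in place of 0 for metastatic against localized. For metastatic against invasive, 2 in place of 1 were lower. Of all genes, 11.9%, 14.1% and 5.35% were lower in these comparisons, and the threshold itself makes this change. Counts of higher genes were unchanged at 1.5-fold, beside 15.1%, 15.9% and 3.5% of all genes. With a 3-fold threshold Ctsc was no longer called for invasive against localized, which left 2 genes higher in place of 3, and the other counts were equal. Medians stayed between 0.14 and 0.17, between -0.064 and 0.0061 and between -0.11 and -0.079 in the 3 comparisons (same order); without a filter the second turned from -0.063 to 0.0061, as Ctsk and Ctss entered. With a pseudocount of 0.1 the difference of Ctss against the localized library became 2.03 (invasive) and 1.24 (metastatic), which rests on a value listed at 0. No paired analysis was possible because each group has 1 library, and for the same reason no library could be left out. Depth limits the values of Ctsk and Ctss only among the 10 genes.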
